A study of Homo sapiens with 36 samples.

Results

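The heavy polysomal pool of HCT116 cells was compared with their cytoplasmic RNA at day 16 (D16), 14 days after the end of a 48 h exposure to 10 µM 5-fluorouracil (5-FU). HCT116 is an established human colorectal carcinoma line, and 5-FU is a pyrimidine analogue that blocks thymidylate synthesis and is built into RNA and DNA. The comparison uses 6 of the 36 libraries of the series, 3 of the heavy pool and 3 of the cytoplasm, matched by the letters A, B and C, which the labels give as batches. Both fractions of a letter came from 1 lysate, from cells held in emetine, an inhibitor of elongation that keeps ribosomes on their mRNA. Nuclei and mitochondria had been pelleted from this lysate, and the heavy pool holds gradient fractions with more than 3 ribosomes per mRNA. The 6 libraries made before the drug (D0) and the 6 of day 14 (D14), prepared in the same way, serve for comparison. All groups are the same line in the same medium, the D0 cells had no 5-FU, and the series holds no untreated culture of D16 age, so drug and time in culture cannot be told apart. The sources give no step that separates D14 from D16. They also do not say whether the letters are separate cultures, so p-values rest only on the spread between these samples, which may be technical.

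An mRNA in active translation carries several ribosomes, and the number that fits on it grows with its coding length. An mRNA held back from initiation sits in light fractions or free ribonucleoprotein, and its level in the heavy pool is then low beside its level in the cytoplasm. Classic cases are the ferritin mRNAs, whose 5′ leader folds into an iron response element that iron regulatory proteins bind to block initiation, and the TOP mRNAs, which begin with a cytosine and a run of pyrimidines and encode ribosomal proteins and elongation factors. Transcripts of the mitochondrial chromosome are read by mitochondrial ribosomes, and 7SL, U6 and BC200 are not translated at all.

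The sequences behind the first 2 of these cases are shown because both groups stood out at D16. The iron response elements of the 2 ferritin mRNAs are given with the loop in capitals (GENCODE 29 transcripts, GRCh38, chr11:61967574-61967602 on the minus strand for FTH1 and chr19:48965335-48965363 on the plus strand for FTL), and both lie in the 5′ UTR.
FTH1: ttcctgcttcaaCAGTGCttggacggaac
FTL: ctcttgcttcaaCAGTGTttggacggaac
An element of this form (a loop of CAGTGN whose last base is not a guanine, an upper stem of 5 pairs with G-T pairs allowed, and an unpaired C just before that stem, searched on the sense strand) was found in 9 of 11572 5′ leaders (0.0778%). A match is a description and not a proven site.

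The 30 bases around the RefSeq transcription start (GRCh38.p14) are shown for 5 TOP mRNAs that passed the test, with the pyrimidine run in capitals. They come from chr12:56116623-56116652 (plus strand, RPL41), chr3:39406710-39406739 (plus, RPSA), chr12:120201092-120201121 (minus, RPLP0), chr15:69452808-69452837 (plus, RPLP1) and chr6:73521013-73521042 (minus, EEF1A1).
RPL41: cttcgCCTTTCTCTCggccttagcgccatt
RPSA: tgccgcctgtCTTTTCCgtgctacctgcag
RPLP0: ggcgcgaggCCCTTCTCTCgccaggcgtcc
RPLP1: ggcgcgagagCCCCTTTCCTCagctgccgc
EEF1A1: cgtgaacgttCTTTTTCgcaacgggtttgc
A run of C followed by at least 4 more pyrimidines, starting within 5 bases of the start, was found in 51 of 63 ribosomal protein genes with a RefSeq entry (81.0%), in 10 of 12 other TOP genes (83.3%) and in 23.0% of all listed genes with an entry. Of the 10 ribosomal protein mRNAs that passed the test 8 had an entry, and 7 of these held the run (87.5%).

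Differences are given as log2(heavy + 1) minus log2(cytoplasm + 1) of the deposited normalised counts, with the standard error (SE) of the limma fit over 3 letter pairs. This fit borrows much of each gene's error from other genes, so neither SE nor p-value measures the spread of a gene's own letters. At D16 the letters of TYMS had a standard deviation (SD) of 0.04 beside an SE of 0.16. Those of FLNA had an SD of 0.70 beside an SE of 0.24. Genes with an adjusted p below 0.05 are named called. At D16, 91 of 15891 genes were called (0.573%), and all 91 were lower in the heavy pool, by 0.60 to 3.79 on the log2 scale. No gene was called higher by limma, although 409 genes were higher and 772 lower at an unadjusted p under 0.05. The positive difference nearest to the threshold was that of PTMA, the mRNA of prothymosin alpha, a small acidic nuclear protein, at 0.48 ± 0.10 (SE, n = 3; adjusted p = 0.09011). Its normalised counts were 256964, 206297 and 249425 in the cytoplasm of letters A, B and C and 306846, 308377 and 378160 in their heavy pools, so that the groups did not overlap. The count of called genes rested on letter B, whose libraries are described further on: without it 638 genes were called, 84 higher and 554 lower, and 88 of the 91 were among them. Without letter A 143 genes were called, 29 of them higher.

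The called genes fall into few families. The mitochondrial chromosome gave 16 of its 18 listed genes, and nuclear copies of mitochondrial genes gave 11 of 12. Ribosomal proteins gave 10 of 79, other TOP mRNAs 2 of 19, and pseudogenes of ribosomal proteins or of EEF1A1 17 of 381. Both ferritin chains and 10 of 15 ferritin pseudogenes were called, as were 10 of 19 RNAs of the 7SL, U6, BC200 or snoRNA kind and 3 of 17 snoRNA host genes. The remaining 12283 protein-coding genes gave only 6. Nuclear copies and processed pseudogenes share sequence with their parents, and how reads that fit several places were counted was not given, so their values may be reads of the parent genes and are not used further. The small RNAs called include RN7SL1, RN7SL3, RN7SL4P and RN7SL5P, and RNU6-2, RNU6-3P, RNU6-4P and RNU6-33P. Copies of 7SL and copies of U6 may share reads in the same way, so the 10 calls may not be 10 separate RNAs.

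**Figure D1:**
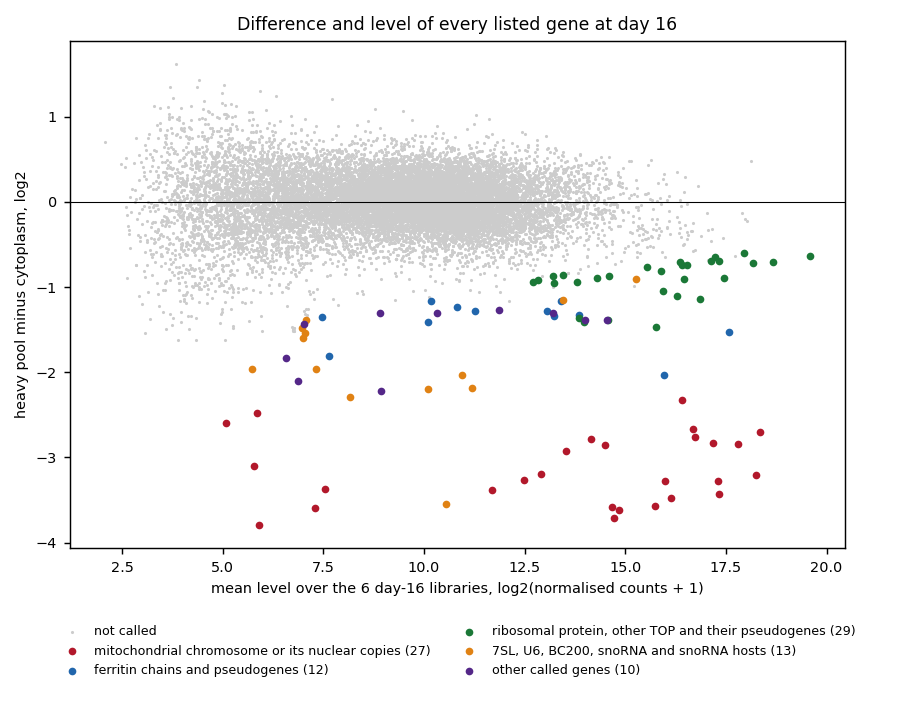
Each point is a gene: the x axis is its mean level over the 6 D16 libraries, log2(normalised counts + 1), and the y axis the mean heavy minus cytoplasm difference on the log2 scale. The 91 called genes are coloured by family, and all lie below 0, from -0.60 to -3.79. Genes of the mitochondrial chromosome, their nuclear copies and BCYRN1 (-3.55) are among the lowest.

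Transcripts of the mitochondrial chromosome gave 16 of the 91 calls, between -3.79 and -2.32. The lowest value is that of MT-TM, a tRNA with only 3.91, 2.92 and 21.7 normalised counts in the heavy pools of A, B and C. MT-CO1, a catalytic subunit of cytochrome c oxidase (chrM:5904-7445), had 488222, 668216 and 564630 normalised counts in the cytoplasm of letters A, B and C and 74310, 82790 and 108318 in the heavy pool. Every heavy library was below every cytoplasmic one, and the difference was -2.70 ± 0.12 (adjusted p = 9.29e-07), a 6.51-fold lower level. MT-ND4, a subunit of respiratory complex I, had 256137, 360782 and 282959 in the cytoplasm and 21806, 26479 and 36239 in the heavy pool. Its difference of -3.43 ± 0.15 (adjusted p = 9.29e-07) was a 10.8-fold lower level, again with no overlap. The most negative difference among the mRNAs was that of MT-ATP8, a short subunit of ATP synthase, at -3.71 ± 0.19 (adjusted p = 2.27e-06). MT-ND4L, MT-ND2, MT-ND1, MT-ATP6, MT-ND3 and MT-CO3 lay between -3.58 and -2.84 and were all called. MT-ND6, the single protein gene on the other strand of this chromosome, was the only one of 13 mRNAs not called, at -1.12 ± 0.22 (adjusted p = 0.06514), while all 13 were called without letter B and with the GC trend aligned.
Of the ribosomal RNAs of mitochondria, MT-RNR2 stood at -3.20 ± 0.12 and MT-RNR1 at -2.86 ± 0.15, both called. The mitochondrial chromosome made up 6.07 to 7.48% of the D16 cytoplasmic total, and 0.847 to 1.31% of the total of the D16 heavy pools. At D0 the heavy pools held 1.41 to 2.13% and at D14 0.181 to 0.312%, against 5.05 to 6.79% and 6.47 to 9.80% of the cytoplasm, so the D16 pools lay between those of the other days.

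Both ferritin mRNAs were lower too. FTL encodes the light chain of the iron store ferritin (chr19:48965301-48966878, plus strand), and FTH1 the heavy chain, which oxidises the iron (chr11:61959718-61967660, minus strand). FTL had 106816, 104753 and 94397 normalised counts in the cytoplasm of letters A, B and C and 26325, 23112 and 25398 in the heavy pool. The 3 letters gave nearly the same difference (-2.02, -2.18 and -1.89), and the mean of -2.03 ± 0.13 (adjusted p = 1.02e-05) was a 4.09-fold lower level. FTH1 had 306577, 287490 and 281400 in the cytoplasm and 107012, 90155 and 106918 in the heavy pool. Its difference was -1.53 ± 0.10 (adjusted p = 1.87e-05), a 2.89-fold lower level, and here too no heavy library reached a cytoplasmic one.
Other mRNAs with an element of the printed form did not share this. GART, an enzyme of purine synthesis, stood at -0.30 ± 0.18, ADAR, which edits adenosines in double-stranded RNA, at -0.21 ± 0.21, and CSF1, a macrophage growth factor, at -0.13 ± 0.23. TMEM198, PRPF18, ZBTB14 and CCDC116 ranged from -0.16 to 0.34, and none of these 7 genes was called (lowest adjusted p = 0.7251). On a list of 8 mRNAs known for iron response elements the 2 ferritins were again the only members called, and the median of that list was -0.06, against 0.01 over all genes.

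Ribosomal protein mRNAs were 0.34 lower at the median (79 listed), 75 of 79 differences were below 0, and 59 were below 0 in all 3 letters, against 15.2% of all genes (2419 of 15891). The 10 that passed the test were all lower, from -1.47 to -0.64, and included RPL41, RPLP1, RPSA, RPLP0, RPS27, RPS2, RPL4, RPL13A and RPL13. RPL41, which encodes the smallest protein of the ribosome, had 89927, 85074 and 71033 normalised counts in the cytoplasm of A, B and C and 33799, 23170 and 32870 in the heavy pool. Its difference was -1.47 ± 0.16 (adjusted p = 0.001173), and its libraries did not overlap. A part of its short coding length in this difference was not tested. The class of coding sequences up to 300 bases had a D16 median of 0.13, with 4 of 262 genes called, all lower. The whole reading frame of RPL41 is printed: 25 codons and a stop, spliced from chr12:56116788-56117524 (plus strand, GENCODE 29), with start and stop codons in capitals.
RPL41: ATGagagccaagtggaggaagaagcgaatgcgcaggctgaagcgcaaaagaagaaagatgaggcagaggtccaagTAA
RPSA, a protein of the small subunit, had 111699, 121492 and 116375 in the cytoplasm and 62402, 60421 and 63986 in the heavy pool, and the 3 letters differed little (-0.84, -1.01 and -0.86; mean -0.90 ± 0.11, adjusted p = 0.003757). RPLP0, of the ribosomal stalk, stood at -0.89 ± 0.11 (adjusted p = 0.005046), and its stalk partner RPLP1 at -1.10 ± 0.16 (adjusted p = 0.01165). At the other end of the list FAU stood at 0.25, RPL34 at 0.13, RPS24 at 0.05 and RPL11 at 0.02, and none was called. The D16 heavy pools held 10.2 to 11.3% of their total in ribosomal protein mRNAs and the cytoplasm 11.8 to 13.7%.

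Of 19 further TOP mRNAs, 2 were called, both lower. EEF1A1, which brings aminoacyl-tRNA to the ribosome, had 1004960, 925608 and 920784 normalised counts in the cytoplasm and 628375, 602149 and 604469 in the heavy pool. The letters nearly coincided (-0.68, -0.62 and -0.61), and the mean of -0.64 ± 0.07 (adjusted p = 0.002) was not called without letter B (-0.64, adjusted p = 0.08515). PABPC1, the poly(A)-binding protein, had 177340, 122151 and 196273 against 67841, 78148 and 74302, with no overlap, and stood at -1.14 ± 0.15 (adjusted p = 0.006005). TPT1, the tumour protein known as TCTP, stood at -0.68 ± 0.13 (adjusted p = 0.05654) and EEF2, the translocation factor, at -0.63 ± 0.14 (adjusted p = 0.1295). The median of these 19 was -0.14. The calls among TOP mRNAs depended on scaling: with every library set to the same total the median of all genes moved to 0.25, the ribosomal protein list to -0.09 with 1 call (from 10), the other TOP list to 0.11, and RPSA, RPLP0, RPLP1, EEF1A1 and PABPC1 were no longer called (adjusted p = 0.07403 to 0.2655). RPLP1 and EEF1A1 were also not called in the fit of all 18 pairs (adjusted p = 0.05278 and 0.1093), nor RPLP1 with each pair centred on its median (0.0504).

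**Figure D2:**
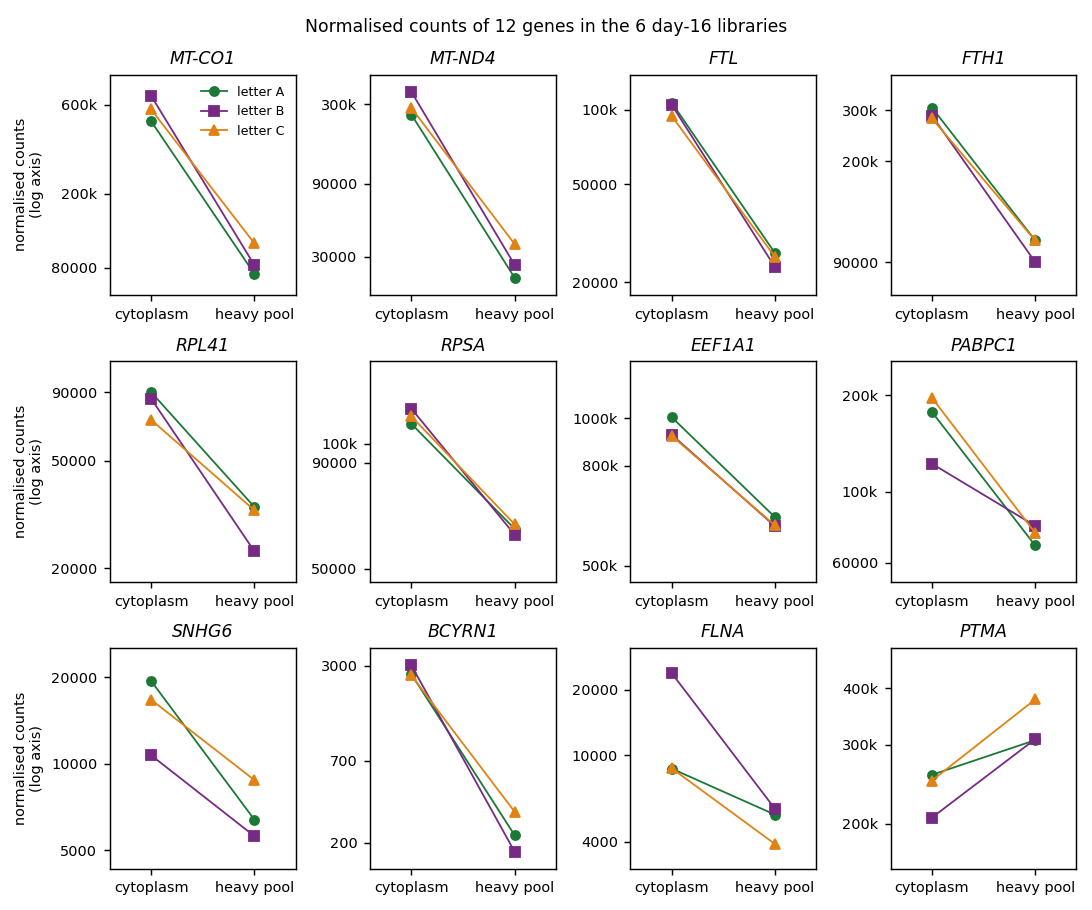
Normalised counts (log axis, with a scale of its own in each panel) of 12 genes in the cytoplasm and heavy pool of D16, with each letter's 2 libraries joined by a line. All lines fall for the 11 called genes shown, and those of PTMA (adjusted p = 0.09011) go up in each letter.

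Several noncoding RNAs were called lower as well. BCYRN1 (BC200), a short RNA of the cytoplasm that binds poly(A)-binding protein, had 2628, 3007 and 2578 normalised counts in the cytoplasm and 224, 175 and 321 in the heavy pool, a difference of -3.55 ± 0.24 (adjusted p = 2.24e-05) and an 11.7-fold lower level. RN7SL1, the RNA of the signal recognition particle, had 4839, 3361 and 1506 against 904, 660 and 602 and stood at -2.03 ± 0.25 (adjusted p = 0.003515). Other copies of 7SL may share its reads. SNORD3A, the U3 snoRNA, stood at -1.96 ± 0.35 (adjusted p = 0.03616) on few counts, 95, 84 and 69 in cytoplasm and 30, 13 and 21 in heavy pools. These RNAs carry no long poly(A) tail of their own, and the libraries were poly(A)-selected, so their levels are of selected molecules only.
Hosts of snoRNAs are spliced RNAs whose introns release snoRNAs, and many begin with a TOP sequence. SNHG25, SNHG6 and SNHG29 were called lower, at -1.96 ± 0.33, -1.16 ± 0.18 and -0.91 ± 0.15 (adjusted p = 0.02472, 0.01819 and 0.0213), out of 17 hosts with a median of -0.31. All 3 calls were lost without the letter block (adjusted p = 0.05529, 0.1735 and 0.05659) and with equal totals (0.2521 to 0.2685). GAS5, another host, had 18009, 13124 and 16073 in the cytoplasm and 8707, 7185 and 10678 in the heavy pool, without overlap, and stood at -0.84 ± 0.16 (adjusted p = 0.0631). Its RefSeq start window held no pyrimidine run of the form searched above.
The nuclear RNAs MALAT1 and NEAT1 stood at -0.51 ± 0.27 (adjusted p = 0.709) and -0.76 ± 0.22 (adjusted p = 0.3427). In MALAT1 the letters disagreed, at -1.33, 0.14 and -0.33. Without letter B both were called lower, at -0.83 (adjusted p = 1.143e-05) and -0.89 (adjusted p = 2.96e-05). That fit has 2 pairs and borrows nearly all of its error from other genes. Its p-values therefore do not measure how far letters A and C differ in these RNAs.

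The 6 other protein-coding genes are, apart from FLNA, named after their values were seen. IDS, a lysosomal sulfatase, stood at -2.23 ± 0.28 (adjusted p = 0.004155), with 677, 938 and 777 normalised counts in the cytoplasm and 253, 150 and 125 in the heavy pool. Its pseudogene IDSP1 was called as well, at -2.10, and may share reads with it. IGF2, an insulin-like growth factor, stood at -1.83 ± 0.30 (adjusted p = 0.02358), MARCHF2, a membrane-bound ubiquitin ligase, at -1.30 ± 0.21 (adjusted p = 0.02035), and TNFSF12, a cytokine of the tumour necrosis factor family, at -1.31 ± 0.21 (adjusted p = 0.02059). PABPC3 (-1.27 ± 0.22) is a near copy of PABPC1 and may share its reads. FLNA, the actin crosslinker filamin A, has the longest coding sequence among these, at 7944 bases. It had 8680, 23821 and 8712 in the cytoplasm and 5338, 5683 and 3916 in the heavy pool, and stood at -1.31 ± 0.24 (adjusted p = 0.0417). Its letters differed, at -0.70, -2.07 and -1.15, since the cytoplasmic library of letter B stood far above the other two, and its exons hold 62.2% GC.

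Many genes of the drug response had differences near 0 at D16. TYMS, thymidylate synthase and the main target of 5-FU, had 8146, 7996 and 9550 normalised counts in the cytoplasm and 9449, 9397 and 11705 in the heavy pool. The letters gave 0.21, 0.23 and 0.29, but the call was missed (0.25 ± 0.16, adjusted p = 0.7484). CDKN1A, the p53 target that arrests the cell cycle, stood at 0.02 ± 0.18, MDM2, which degrades p53, at 0.16 ± 0.22, and RRM2, a subunit of ribonucleotide reductase, at 0.08 ± 0.16. ATF4, a stress factor with upstream reading frames, stood at 0.09 ± 0.14, ACTB at -0.13 ± 0.11 and GAPDH at -0.20 ± 0.09. None of these was called (lowest adjusted p = 0.6836, of GAPDH). None of the 30 p53 targets was called (median 0.06), nor of 27 genes of thymidylate and fluoropyrimidine metabolism (0.04), 23 interferon-stimulated genes (0.06) or 78 nuclear-encoded respiratory chain subunits (0.11). SR splicing factors had the highest median of the 31 lists, 0.28, with 0 of 15 called and 14 of 15 differences above 0. This rested on letter B (0.04, 0.67 and 0.21 for A, B and C): without it the median was 0.13, below that of histones (0.22) among others.

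Letter B followed GC content, and this touches every result across genes. Across the 15782 genes with a known GC content, the D16 difference correlated with it at r = 0.13 in letter A, -0.64 in B and -0.05 in C, where points of a letter share 1 pair of libraries. In letter B the median difference went from 0.83 in the fifth of genes with the lowest GC (28.6 to 41.9%) through 0.30, -0.12 and -0.37 to -0.51 in the highest (58.7 to 75.5%). The same medians lay between -0.08 and 0.09 in letter A and between -0.11 and 0.04 in C. The trend of letter B sat in its cytoplasmic library: its deviation from the other 2 letters correlated with GC at 0.70, that of its heavy library at 0.11. At D14 the cytoplasmic library of B showed the same (0.75), and at D0 it did not (-0.34). The D16 heavy libraries of A and C also deviated with GC, in opposite directions (0.36 and -0.35). Differences of A and B were all but uncorrelated across genes at D16 (r = 0.01, with 0.31 for A and C and 0.20 for B and C), where D0 had 0.75 to 0.80.

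**Figure D3:**
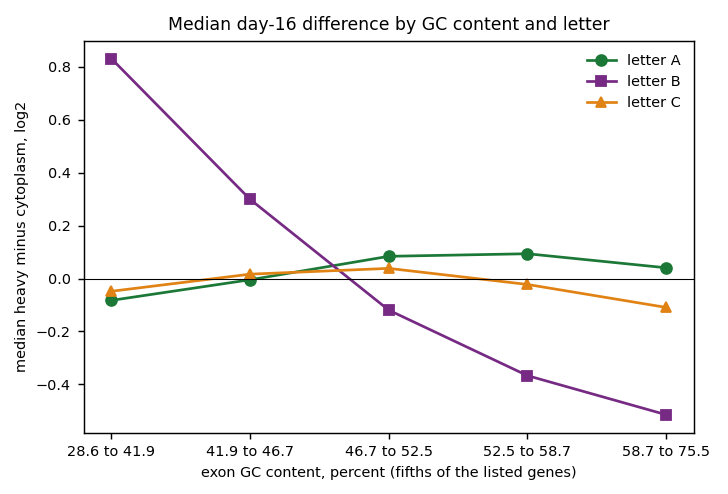
Median heavy minus cytoplasm difference (y axis, log2) over 5 groups of listed genes of nearly equal size by exon GC content (x axis, percent), with 1 line per letter at D16. Letter B goes from 0.83 down to -0.51, while letters A and C stay between -0.11 and 0.09.

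With only letters A and C, 554 genes were called lower (3.49%) and 84 higher (0.529%), in a fit with 2 pairs, where nearly all of each gene's error is borrowed from the other genes. Of 35 mitosis genes 13 were then called, all lower, and 12 of the 13 had the opposite sign in letter B. CENPF, a kinetochore protein, stood at -1.17 in A and -0.99 in C but 0.73 in B, with a GC content of 40.8%. ASPM, of the spindle poles, stood at -0.79, -1.25 and 0.86 in A, C and B, and the condensin subunit SMC4 at -0.93, -1.06 and 1.02. The kinesins KIF11, KIF18A and KIF23 and the kinase TTK were among the others. TOP2A, the topoisomerase of dividing cells on the DNA replication list, stood at -0.87 and -1.07 in A and C and 0.62 in B. Letter B was also furthest out in 2 GC-rich genes called lower without it, chosen after their values were seen: FASN, fatty acid synthase, stood at -0.25, -1.73 and -0.98 in A, B and C, and CAD, which starts pyrimidine synthesis, at -0.31, -1.57 and -0.83. When the GC trend of each pair was aligned instead, 204 genes were called, 3 higher and 201 lower, with 90 of the 91 among them, and 0 of the 35 mitosis genes. The part of GC content in the mitosis values was not tested beyond these 2 fits.

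The dependence on coding length differed between D0 and D16. Over genes outside the mitochondrial chromosome, the median difference at D0 went from -1.14 for coding sequences up to 300 bases (262 genes) to 0.59 for those above 4000 (885 genes). At D16 the same classes had medians of 0.13 and -0.16, and each letter was below 0 in the longest class (-0.02, -0.25 and -0.31). The slope per doubling of coding length was 0.33 ± 0.05 (SD, n = 3 letters) at D0 and -0.08 ± 0.07 at D16, with no overlap between letters. An exact permutation test of the 2 days (two-sided, letters not paired between days) gave p = 0.1, the smallest that 3 against 3 letters allow. At D14 the slope was -0.10 ± 0.02, and D16 could not be set apart from it (exact permutation p = 0.6). Both fractions moved between D0 and D16: the shortest class changed by a median of 1.06 in the heavy pool and -0.20 in the cytoplasm, the longest by -0.37 and 0.37. With every library set to the same total the D16 medians shifted by about 0.25 and that of the longest class became 0.08.

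**Figure D4:**
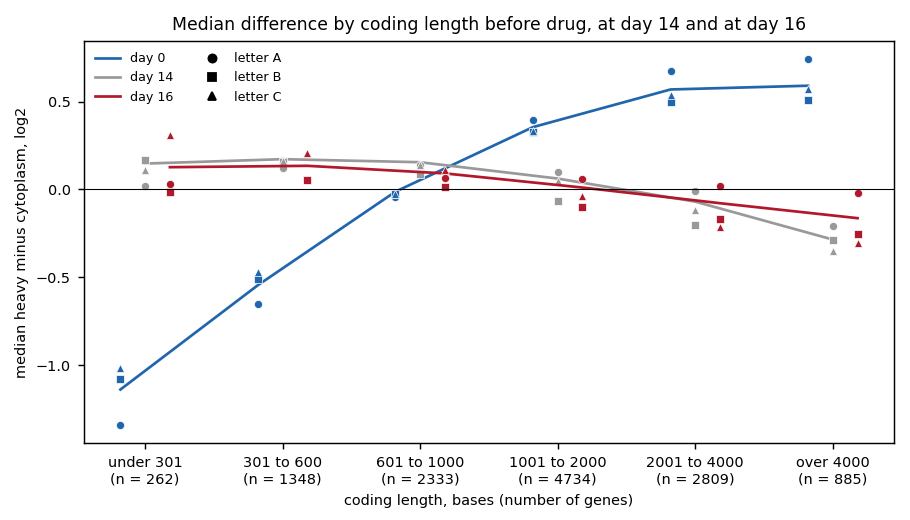
Median heavy minus cytoplasm difference (y axis, log2) by class of coding length (x axis, bases), with lines for the mean over letters and symbols for each letter at D0, D14 and D16. The D0 line climbs from -1.14 to 0.59, while the D14 and D16 lines lie between -0.29 and 0.17.

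Gene by gene, the difference at D16 was not that of D0 for 4461 of 15891 genes (28.1%): 1772 were higher (11.2%) and 2689 lower (16.9%) than before the drug, in a limma fit over all 18 pairs of the series. The fit pairs the fractions within a letter and day but does not pair the letters between days. Of the shortest coding class 71.0% were higher and none lower, and of the longest 34.9% were lower and 0.791% higher. This count depended on letters and scaling. It was 1502 without letter B (616 higher, 3.88%, and 886 lower, 5.58%), 4397 without A and 0 without C, where 4148 genes still had an unadjusted p under 0.05. With equal totals the split was 2659 higher and 909 lower, and with each pair centred on its median 2305 and 2004.

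Among protein-coding genes that averaged 100 normalised counts or more in either D16 fraction, the 6 largest called increases were SNX10, IER3IP1, BEND6, DYNLT3, RWDD1 and SVIP, between 2.64 and 2.90. IER3IP1, a small protein of the endoplasmic reticulum, had 841, 743 and 602 normalised counts in the D0 cytoplasm and 185, 136 and 152 in the D0 heavy pool. At D16 it had 764, 306 and 707 against 715, 698 and 1429. The difference thus went from -2.20 to 0.70, by 2.90 ± 0.38 (adjusted p = 0.0002644), and the letters of the 2 days did not overlap (-2.44 to -1.98 and -0.09 to 1.18). SNX10, a sorting nexin of endosomes, went from -2.20 to 0.71, but its D16 letters ranged from -0.23 in A to 2.13 in B. RWDD1 likewise ranged from -0.48 in A to 1.22 in B, and DYNLT3, a dynein light chain, from -0.31 to 2.06. The exons of these 6 genes have 34.4 to 39.1% GC, in the range where letter B was high, and without B they stood at 1.80 to 2.54 and were still called.
Under the same limits the 6 largest decreases were MT-ATP8, NOS1AP, FLNA, MT-ND3, NOP2 and SRCAP, from -3.21 to -2.35. FLNA had 12962, 12402 and 16658 in the D0 cytoplasm and 32108, 29123 and 31396 in the D0 heavy pool, on the other side of its D16 values. Its difference went from 1.15 to -1.31, by -2.46 ± 0.39 (adjusted p = 0.0005818), and it was called without letter B as well (-2.04). NOS1AP, NOP2 and SRCAP were not (adjusted p = 0.1017, 0.2212 and 0.07553), and their D16 letters ranged from 0.62 to -2.06, from -0.36 to -1.76 and from 0.80 to -1.97.

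Called families at D16 had already been low in the heavy pool before the drug, to an unequal degree. FTL stood at -2.56 at D0, -2.30 at D14 and -2.03 at D16, and FTH1 at -2.27, -1.59 and -1.53. The change of FTH1 from D0 was called (0.74 ± 0.27, adjusted p = 0.04907), but not without letter B (0.88, adjusted p = 0.1949), and that of FTL was not called (0.53 ± 0.27, adjusted p = 0.1499). Ribosomal proteins stood at a median of -1.04 at D0 and -0.10 at D14. Of 79, 14 were called higher at D16 than at D0 and none lower, beside 11.2% of all genes higher. This comparison was not matched for coding length. Of coding sequences up to 300 bases 71.0% were higher, of those above 300 and up to 600 bases 36.7%. Of those above 600 and up to 1000 bases 16.4% were. A rise particular to ribosomal proteins was therefore not tested. Without letter B 1 of 79 ribosomal proteins was higher, beside 3.88% of all genes. In a fit of the 6 pairs of D0 and D16 alone 48 of 79 were. RPL36A and RPL12 showed the largest such changes, 1.90 ± 0.52 and 1.89 ± 0.41 (adjusted p = 0.01125 and 0.002998). RPL41 (0.12 ± 0.33, adjusted p = 0.8177) and RPSA (0.02 ± 0.25, adjusted p = 0.9565) were not among them. In the heavy pools ribosomal protein mRNAs took 5.91 to 6.33% at D0. TPT1 rose by 1.10 ± 0.38 (adjusted p = 0.04013), while EEF2 fell by 0.85 ± 0.27 (adjusted p = 0.02344), a call lost with equal totals (adjusted p = 0.1646). The selenoprotein GPX4, which reduces lipid peroxides, rose by 1.42 ± 0.30 (adjusted p = 0.002471), from -1.88 to -0.46. It was still called without letter B, as 1.67 (adjusted p = 0.03215), whereas RPS27L, OAZ1, ODC1, NEAT1, TPT1, EEF2, RRM2 and MT-CO1 were not.

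Lists are described next by the same change from D0, to be read against the 11.2% of all genes called higher and 16.9% called lower (3.88% and 5.58% without letter B). These shares of all genes are not matched to the coding lengths of a list. Nuclear-encoded respiratory chain subunits, most of them short, had a median of -0.69 at D0 and 0.11 at D16, with 30 of 78 called higher and 9 lower, the latter under the share of all genes (13 and 2 without letter B). ATP5MG and ATP5F1E, small subunits of ATP synthase, rose by 2.02 ± 0.40 and 1.96 ± 0.39 (adjusted p = 0.0016 and 0.001695). Aminoacyl-tRNA synthetases, which charge tRNA, had medians of 0.78 and -0.08 and 14 of 20 called lower, led by AARS1 (-1.53 ± 0.29) and VARS1 (-1.51 ± 0.31). DNA replication genes had medians of 0.77 and -0.15, and 24 of 37 were called lower and 1 higher. MCM2 and MCM7, of the replicative helicase, fell by 1.92 ± 0.31 and 1.71 ± 0.22 (adjusted p = 0.0006426 and 0.0002644). Glycolysis genes had medians of 0.79 and -0.18 with 13 of 20 called lower, among them PFKL (-1.57 ± 0.27) and HK1 (-1.48 ± 0.28). Chromatin remodellers and other large regulators had 0.55 and -0.31, with 14 of 29 called lower. Without letter B the lower calls were 9 of 20 synthetases, 17 of 37 replication genes, 8 of 20 glycolysis genes and 1 of 29 regulators, the last under the share of all genes. Without C there were none, as for all genes.

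**Figure D5:**
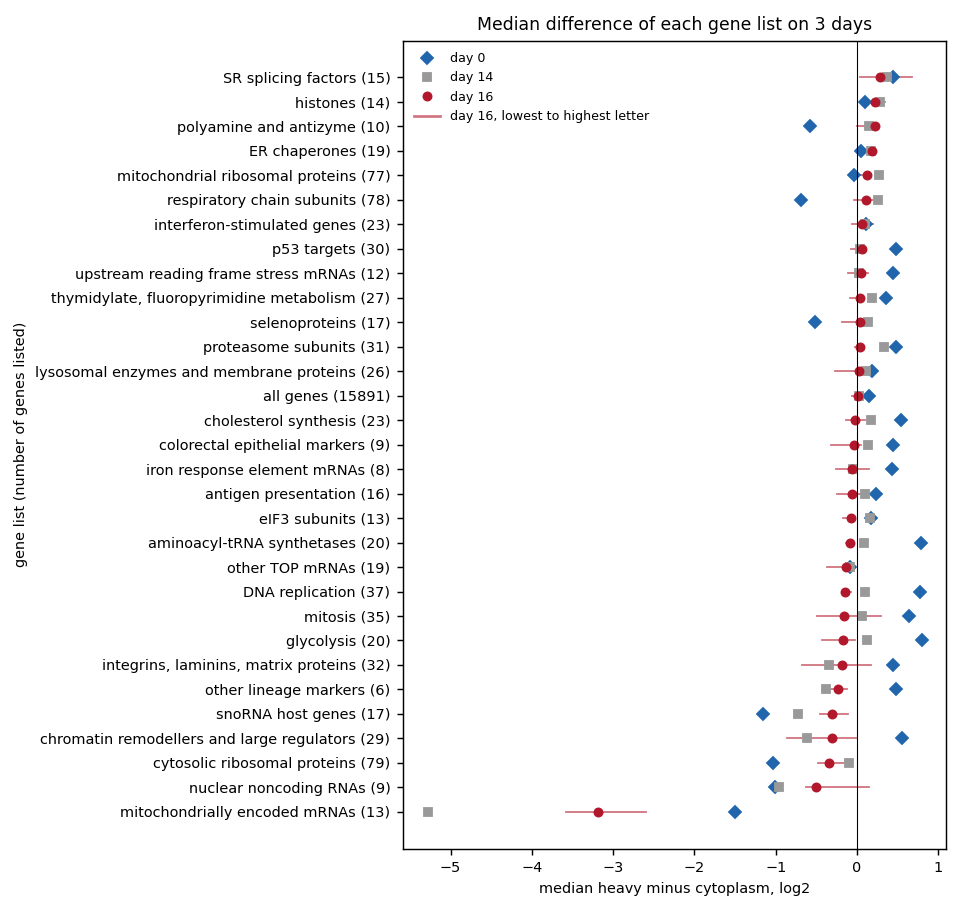
Median heavy minus cytoplasm difference (x axis, log2) of 30 gene lists and of all genes (y axis, number of listed genes in parentheses) at D0, D14 and D16, and the range of the 3 letters at D16. Mitochondrially encoded mRNAs stand lowest of the lists shown on all 3 days, and the 2 ferritin genes are not shown as a list; the aminoacyl-tRNA synthetases go from 0.78 at D0 to -0.08 at D16.

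Between D14 and D16 the difference changed for 14 of 15891 genes (0.0881%), all higher at D16: 7 of the mitochondrial chromosome, 6 pseudogenes and 1 long noncoding RNA. Here too letters were not paired between days, so an effect of a letter common to D14 and D16 counted as error. The 6 pseudogenes are nuclear copies of mitochondrial genes, whose values may be reads of their parents. MT-ND4L, a complex I subunit, had 38424, 73350 and 76090 normalised counts in the D14 cytoplasm and 333, 659 and 622 in the D14 heavy pool. At D16 it had 33331, 66431 and 45429 against 3041, 4101 and 4678. The cytoplasmic ranges overlapped, the heavy ranges did not, and the difference went from -6.86 to -3.58, by 3.27 ± 0.36 (adjusted p = 0.0002989). MT-ND4, MT-ND2, MT-ND1, MT-CO1 and MT-ATP6 changed by 3.00 ± 0.34, 2.47 ± 0.35, 2.44 ± 0.34, 2.19 ± 0.25 and 2.10 ± 0.38. The 14 calls became 0 without letter B, 1 without C, 10 without A and 3 without the letter pairing. In data simulated with each gene's own spread on each day, this contrast made more false calls than the 14 calls found here. With a spread per gene shared over days it made fewer. Neither simulation held a trend shared across genes. Against D0, by contrast, 11 of 13 mitochondrially encoded mRNAs were called lower at D16 (4 without letter B), MT-ATP8 by -3.21 ± 0.38 (adjusted p = 0.0001623).

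The D16 libraries held 44.0 to 48.3 megareads over the listed genes for the cytoplasm and 48.2 to 51.7 for the heavy pool, ranges that overlapped. The table lists only genes with a value over 1 in every library, and 9 of 15 colorectal epithelial markers were in it. KRT8, KRT18, KRT19, EPCAM and CLDN4 had D16 cytoplasmic means of 166768, 87080, 100575, 12530 and 23949 normalised counts. Of 24 markers of other cell lineages 6 were listed (DES, ACTA2, HBA1, ITGAM, MYH11 and COL1A1), and their sum per library ranged from 1381 to 2171 (cytoplasm) and from 1327 to 1656 (heavy pool), against 357100 to 467000 and 316200 to 362900 for the epithelial markers. Their part in the differences was not tested. Fewer copies per cell and fewer cells with a transcript cannot be told apart in such bulk libraries.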

How the data were processed

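RNA of HCT116 cells was sequenced from cytoplasm and heavy polysomal pool. The submitters' processing notes list DESeq2 1.30.1, Subread 2.0.1 (featureCounts), STAR 2.7.9a, the build GRCh38, cutadapt 3.2 and FastQC 0.11.9, without their roles. The deposited values are a signal, gene counts divided by 1 size factor per library, as their steps show. Strand setting and the treatment of multiply mapped reads were not given in the sources used here. Of 54 columns 18 belong to no sample and were not used. The table lists 15891 genes, 15856 with a symbol and 12384 with a coding length in GENCODE 29.

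The step between low values gave each library's reads (100 percent of values whole within 0.01), used for depth only. The main fit on log2(value + 1) of the 6 D16 libraries used limma 3.58.1 in R 4.3.3 (lmFit, then eBayes with a trend), the letter as block and no filter on low values. For D16 against D0 and D14 it took the paired differences of all 18 pairs, with a mean for each day and no letter term between days. Tests were two-sided with Benjamini-Hochberg adjustment over all genes. A log2(value + 1) scale understates changes of low genes.

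Letters pair the samples, since the labels give each as a batch. Deviations of cytoplasm and heavy pool from their D16 means correlated at -0.27, 0.12 and 0.37 in letters A, B and C.

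Members, 31 gene lists and tests were chosen with earlier results of these data known. The rule named the 10 largest called protein-coding differences each way (mean 100 or more, 1 sign over the letters), up to 4 called genes of each list, the 6 largest called each way against D0 and D14, and a fixed set. Other genes, such as the list members without letter B or against D0, are named after their values were seen.

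The fits were tested on simulated data under 2 assumptions on spread. Noise was drawn separately for each gene, so neither held a trend shared across genes, such as that of letter B with GC content. False calls and recoveries in the real data may therefore differ from the simulated ones. With each gene's spread taken from its own values of each day, the D16 fit made no false call, but the contrasts with D0 and D14, which share 1 variance over days, did, and the contrast with D14 made more of them than it has calls in the data. The other assumption, added after that result was seen and closer to what the model assumes, takes 1 spread per gene scaled by day, and there few false calls were made. Alternatives covered scaling, pseudocounts, a filter (at least 10 in at least 3 libraries), GC alignment, blocks and letters left out.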

Additional observations from a re-analysis of the deposited data

Results flagged for a closer look

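These results differ between days by a test of the difference itself, the limma contrast of paired differences over all 18 pairs. From D0 to D16 the heavy minus cytoplasm difference changed for 4461 genes, and from D14 to D16 for 14.

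Among protein-coding genes that averaged 100 normalised counts or more in either D16 fraction, the largest increases from D0 were SNX10 2.90, IER3IP1 2.90, BEND6 2.701, DYNLT3 2.699, RWDD1 2.67 and SVIP 2.64, and the largest decreases were MT-ATP8 -3.21, NOS1AP -2.57, FLNA -2.46, MT-ND3 -2.45, NOP2 -2.41 and SRCAP -2.35. From D14, MT-ND4L changed by 3.27, MT-ND4 by 3.00, MT-ND2 by 2.47, MT-ND1 by 2.44, MT-CO1 by 2.19 and MT-ATP6 by 2.10. MT-CO1 thus moved in opposite directions against the 2 days, by -1.21 from D0.

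Of the fixed set, GPX4 changed by 1.42 from D0, NEAT1 by 1.27, RPS27L by 1.24, TPT1 by 1.10, OAZ1 by 0.88, ODC1 by 0.78 and FTH1 by 0.74. RRM2 changed by -0.79 and EEF2 by -0.85. No group had 4 or more libraries, so no test for a library standing apart was run. The GC trend of the D16 cytoplasmic library of letter B is described above.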

How the results depend on the processing

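At D16 the 91 calls became 204 with the GC trend aligned and the letter block kept, and 28 with equal totals, which moved the median of all genes from 0.01 to 0.25. They numbered 84 without the letter block (78 of the 91 among them) and 64 to 107 under the other settings, and 92 to 638 with a letter left out. The D16 minus D0 count was 0 to 4397 with a letter left out and stayed within 1.5 times of 4461 otherwise. The D16 minus D14 count was 3 without the block of paired letters and 0 to 10 with a letter left out. The block changed no other count by over 1.5 times, and of the genes named it changed, beside the snoRNA hosts and those against D14, the call of MT-CO1 from D0 (adjusted p = 0.05025 without it).

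Signs turned for values near 0 that were not called. At D16 these were RRM2 (-0.0617) and MDM2 (-0.0036) with GC aligned, ODC1 (0.12), ACTB (0.12) and GAPDH (0.046) with equal totals, and, with a letter left out, CDKN1A (-0.16 to 0.25), MDM2 (-0.13 to 0.31) and ATF4 (-0.0284 to 0.17). Against D0 they were EEF1A1 (0.13) and GAPDH (0.10) with equal totals, EEF1A1 (0.0305) and GAPDH (0.0049) with pairs centred on their medians, and, with a letter left out, PABPC1 (-0.0474 to 0.44), RPL41 (-0.0604 to 0.42), MDM2 (-0.0128 to 0.71) and TYMS (-0.013 to 0.0352). The cause was not tested.

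The planned edgeR and DESeq2 alternatives were not run. The deposited values are scaled by size factors, and the whole reads found from their steps were used for depth only. With 3 letters most small changes put into simulated data were missed, and larger ones were missed as well. These data held no trend shared across genes like that of letter B, so recovery in the real data may differ. With each gene's own spread on each day, the D16 fit recovered 27 of 50 4-fold changes and 28 of 50 8-fold changes. With a spread per gene scaled by day, the D16 fit recovered 37 and 45 of 50. A gene that was not called may thus still differ, even by a large amount. Where the simulated spread differed by gene and day, the contrasts with D0 and D14 made false calls, for D14 more than the 14 calls in the data, so these 14 are less firm than their adjusted p says.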
